A study of Mus musculus with 3 samples.

Results

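Macrophages of the ascending aorta that carried the complement C1q genes but few transcripts of Folr2, F13a1 and Mrc1 were examined in 3 droplet-based single-cell RNA libraries. Transcripts were counted as unique molecular identifiers (UMIs), and a barcode was kept if it had between 600 and 5000 genes and no more than 10% of its UMIs from mitochondrial genes. A barcode counted as a C1q macrophage when, per 10000 UMIs, it had at least 10 of C1qa, C1qb and C1qc together, under 100 of 6 smooth muscle genes (Acta2, Myh11, Tagln, Cnn1, Myl9 and Tpm2), under 20 of Dcn and none of Cd3d, Cd3g or Cd79a. Those with under 3 per 10000 of Folr2, F13a1 and Mrc1 together are called Folr2-low here, and the others Folr2-high. There were 351 Folr2-low barcodes among 26158 that passed. The members were chosen by these measured levels, so the levels of the 3 genes and every contrast between Folr2-low and Folr2-high barcodes are given as descriptions, with no test.

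All mice were male, on a C57BL/6J background and taken at postnatal day 45 (P45). The WT library pooled 3 wild-type mice, and the mgR library pooled 3 Fbn1mgR/mgR mice, which carry a hypomorphic allele of fibrillin-1 as a model of Marfan syndrome. The mgR-LOS library pooled 4 Fbn1mgR/mgR mice that received losartan, a blocker of the angiotensin II type 1 receptor, at 0.6 g/L in drinking water from P16. The labels do not say whether the mgR mice drank vehicle, while the study's methods mention vehicle-treated mutants. Aortas were pooled per arm and digested with elastase and collagenase before capture. The mutation is constitutive, so macrophages and wall cells carried it alike. Each condition had a lone library, so the spread between mice was not measured, no test between conditions was possible, and mice within a pool could not be told apart. All intervals are 95% intervals and cover counting error only, and fewer cells of a kind cannot be told apart from fewer cells recovered. Fbn1, which the mutation lowers, was at 361 CPM (UMIs of the gene per 1e+06 UMIs summed over the barcodes) over all passing WT barcodes, 150.1 CPM in mgR and 117 CPM in mgR-LOS.

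Arterial macrophages are commonly described in at least a pair of states. Cells rich in Lyve1, Folr2, Mrc1 and F13a1 lie mainly in the adventitia, take up debris and are largely self-renewing. Cells poorer in these scavenger genes and richer in major histocompatibility complex (MHC) class II molecules, which present peptides to helper T cells, are replaced in part from blood monocytes. C1q, which both kinds make, is the recognition unit of the classical complement pathway and helps in the clearance of dying cells.

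The markers given for the Folr2-low barcodes were read first. In the WT, mgR and mgR-LOS libraries, C1qa stood at 5644, 3838 and 4337 CPM over the Folr2-low barcodes, and C1qa and C1qb were part of the rule. Lyz2, the lysozyme of myeloid cells, stood at 4938, 8143 and 3186 CPM, and at 2509, 4676 and 3486 CPM in the barcodes outside the 3 groups described further on, so without 1 WT barcode WT was no longer above mgR-LOS. Cd74, the invariant chain that guides MHC class II molecules, stood at 24419.6, 8706 and 14748 CPM. Of the 2 given markers outside the rule, Cd74 was higher than in Folr2-high barcodes in all 3 libraries and Lyz2 was lower. A complement list of 12 genes, 3 of them the C1q genes of the rule, was lower too. It summed to 13879, 11249.7 and 11868 CPM against 16318, 16076 and 15451 CPM in Folr2-high barcodes. The smooth muscle list of 8 genes, 6 of them in the rule, summed to 909.5, 1537 and 1435 CPM, and the fibroblast list, which holds the rule's Dcn and was led by Gsn, to 341, 488 and 639.7 CPM. These sums were held down by the rule. Of the endothelial list, 6 of 6 genes were at 0 in WT, and the list summed to 11.8 CPM in mgR and 12.1 CPM in mgR-LOS. The B cell list summed to 146, 165 and 145 CPM, nearly all of it Ighm, an immunoglobulin gene, against 7.55, 1054 and 12.2 CPM over all passing barcodes, so it was higher in the class in WT and mgR-LOS. The T and NK cell list, led by Il7r, summed to 40.6, 51.5 and 46.9 CPM against 10.2, 46.8 and 18.3 CPM. By the rule, 1 of the 6 B cell genes and 2 of the 9 T and NK genes were at 0 in the class. The neutrophil list, led by Csf3r in mgR, summed to 24.4, 144 and 14.8 CPM against 60.8, 126 and 22.8 CPM. The red cell list summed to 0, 28.6 and 119 CPM. The part of these transcripts in the results was not tested.

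The share of Folr2-low macrophages was highest in the mgR library. They were 11 of 5361 passing barcodes in WT (0.205%, 0.102% to 0.367%), 228 of 8076 in mgR (2.82%, 2.47% to 3.21%) and 112 of 12721 in mgR-LOS (0.880%, 0.725% to 1.06%). These exact (Clopper-Pearson) intervals did not overlap between any pair of libraries. Folr2-high macrophages were also more frequent in mgR, at 1.45%, 8.79% and 3.44% of passing barcodes. Within the C1q macrophages, the Folr2-low share was 12.4% in WT (6.33% to 21.0%, 11 of 89), 24.3% in mgR (21.6% to 27.2%, 228 of 938) and 20.4% in mgR-LOS (17.1% to 24.0%, 112 of 550). The WT interval just missed that of mgR, and the intervals of WT and mgR-LOS, and of mgR and mgR-LOS, overlapped. Depth bears on a split near 0: the median UMIs of Folr2-low barcodes were 10995, 7282 and 6158, against 8616, 8491 and 6332 in Folr2-high barcodes. When each C1q barcode was thinned to 1000 UMIs, 24.7% of WT (16.2% to 35.0%), 35.2% of mgR (32.2% to 38.4%) and 29.9% of mgR-LOS barcodes (26.1% to 33.9%) had no UMI of the 3 genes, in the same order and with all neighbors overlapping. No Folr2-low barcode of WT or mgR was shared with another library, and 1 of mgR-LOS was.

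**Figure D1:**
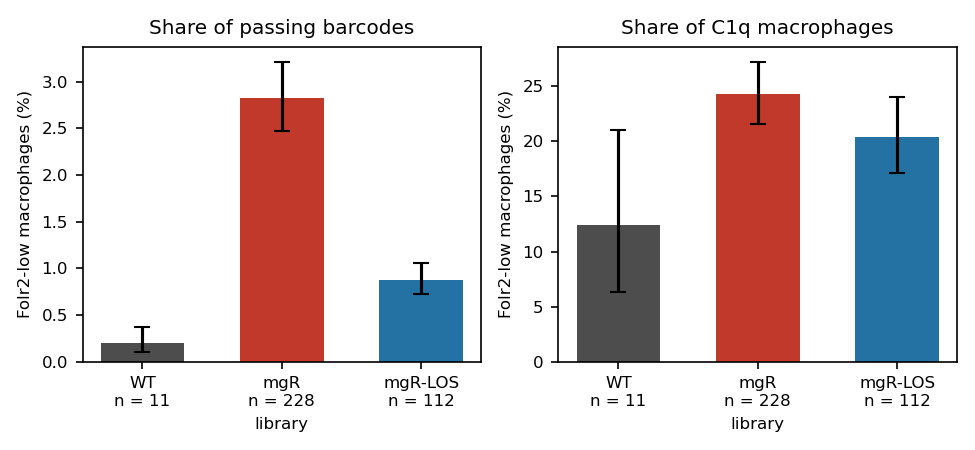
Share of Folr2-low macrophages (%) in the WT, mgR and mgR-LOS libraries, of all passing barcodes on the left and of C1q macrophages on the right. Bars are shares, lines are exact 95% binomial intervals, and n is the number of Folr2-low barcodes; the left panel runs from 0.205% in WT to 2.82% in mgR.

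The 3 genes of the split were nearly absent inside the class, as chosen. Of the Folr2-low barcodes, 5 of 11 in WT, 139 of 228 in mgR and 76 of 112 in mgR-LOS had no UMI of Folr2, F13a1 or Mrc1. The Folr2-high barcodes had medians of 33.7, 32.3 and 43.2 per 10000. The highest values inside the class were 2.73, 2.91 and 2.82 per 10000, and the lowest outside were 4.15, 3.02 and 3.09. Near the threshold, 3, 30 and 12 Folr2-low barcodes lay between 2 and 3 per 10000, and 0, 33 and 15 Folr2-high barcodes between 3 and 4. Mrc1, the mannose receptor, was the most abundant of the 3 in the class, at 97.5, 63.3 and 52.3 CPM.

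Other genes of scavenging resident macrophages were low together with the 3 genes of the split. Of 18 such genes outside the rule, 15 reached 100 CPM in at least one class of every library, and 14 of these were at least 2-fold lower in Folr2-low than in Folr2-high barcodes in all 3 libraries. Over all 1300 genes compared, 5.0% were lower in this way and 1.54% higher, and within the WT, mgR and mgR-LOS libraries taken alone 18.5%, 6.54% and 11.8% were lower and 5.15%, 2.15% and 5.46% higher. The median ratio of Folr2-low over Folr2-high over the 15 genes was 0.100 in WT, 0.159 in mgR and 0.0752 in mgR-LOS, against 0.908, 0.976 and 1.02 over all 1300. Lyve1, a receptor for hyaluronan, had 0, 3 and 0 UMIs in the Folr2-low barcodes, while the Folr2-high barcodes held 918, 914 and 1434 CPM. Cd163, the receptor for hemoglobin bound to haptoglobin, stood at 8.12, 2.24 and 5.36 CPM against 556, 398 and 596 CPM. Retnla, a gene of alternatively activated macrophages, stood at 8.12, 18.5 and 13.4 CPM against 1884, 1724 and 3821 CPM. Cbr2, a carbonyl reductase, was next by ratio. Gas6, a ligand of receptors for dying cells, was at 24.4, 35.8 and 26.8 CPM against 356, 405 and 502 CPM. Pf4 and Selenop, which encode a platelet-type chemokine and a selenium carrier, remained measurable in the class: Pf4 stood at 609, 683 and 404 CPM against 3196, 2406 and 2569 CPM.

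Several chemokine genes were lower in the Folr2-low barcodes. Of 13 compared, 6 were at least 2-fold lower in all 3 libraries (Ccl2, Ccl6, Ccl7, Ccl8, Ccl9 and Ccl24) and none was higher. Over all 1300 genes, 5.0% were lower in this way and 1.54% higher. Ccl2, the ligand of the monocyte receptor Ccr2, stood at 89.3, 745 and 429 CPM in Folr2-low barcodes against 3158, 2285 and 2115 CPM. Ccl7, another ligand of that receptor, stood at 430.4, 302 and 194 CPM against 1767, 1870.0 and 1499.7 CPM. Another 3 of the 13, Ccl3, Ccl4 and Cxcl16, stood above a ratio of 1 in every library without passing 2-fold in all. That was no larger a share than over all 1300 genes, of which 30.2% stood above 1 in every library. Ccl4 had ratios of 1.63, 1.34 and 2.11. Cxcl16, a scavenger receptor and chemokine, had ratios of 1.77, 1.87 and 2.68. The neutrophil attractant Cxcl2 was the most abundant chemokine of the class in every library, and its ratio was 1.87 in WT, 0.870 in mgR and 0.882 in mgR-LOS.

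Only 20 genes were at least 2-fold higher in Folr2-low barcodes in all 3 libraries. The largest geometric mean ratio, 7.56, belonged to Mmp12, the macrophage elastase, which cleaves elastin. It stood at 317, 179 and 321 CPM in Folr2-low and 49.0, 23.5 and 36.6 CPM in Folr2-high barcodes. In the Folr2-low barcodes Mmp12 was found in 5 of 11, 46 of 228 and 39 of 112, and barcodes without a UMI may still hold the transcript at this depth. With a stricter split, of barcodes with no UMI of the 3 genes against barcodes with at least 10 per 10000, its geometric mean ratio was 78.4. That split left 5, 139 and 76 Folr2-low barcodes, set sums under 3 UMIs to 3, and sharpened the choice of members, so it is no separate support. Zmynd15, Gngt2, Bcl2a1a, Runx3, Cytip, Bcl2a1d, Rgs1, Cd72 and Tnip3 came next, with geometric means between 3.51 and 5.42. Under the stricter split Gngt2, Zmynd15, Cytip and Bcl2a1a had ratios of 17.2, 11.9, 11.7 and 10.5. Rgs1, which dampens signals from chemokine receptors, was the most abundant of these, at 1900.3, 1294 and 1326 CPM against 405, 453 and 322 CPM. Runx3, a transcription factor of lymphoid and mononuclear phagocyte lineages, stood at 211, 180.3 and 194 CPM against 40.8, 57.7 and 41.5 CPM. Cd72, an inhibitory receptor shared with B cells, stood at 374, 510.2 and 408 CPM against 116, 145 and 102 CPM. Bcl2a1a and Bcl2a1d, close copies of an antiapoptotic gene between which reads can be split, both stood higher in each library. Il1b and Il1a were the members of the inflammatory list among the 20. Il1b stood at 7333, 4593 and 5827 CPM against 2083, 1969 and 1635 CPM, with ratios of 3.52, 2.33 and 3.56. Tnf had ratios of 2.40, 1.18 and 1.42. Tgfbr1, a receptor subunit for transforming growth factor β, stood at 227, 179.8 and 244 CPM against 105, 79.3 and 54.2 CPM. Immediate early and heat shock genes, which rise when tissue is dissociated, were below a ratio of 1 in all 3 libraries for 19 of 24 genes, against 37.4% of all 1300 genes. At 2-fold in all 3 libraries, 3 of the 24 were lower (Klf4, Hspa1a and Hspa1b) and 1 was higher (Dusp2), against 5.0% and 1.54% of all 1300 genes. Their part in these contrasts was not tested.

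**Figure D2:**
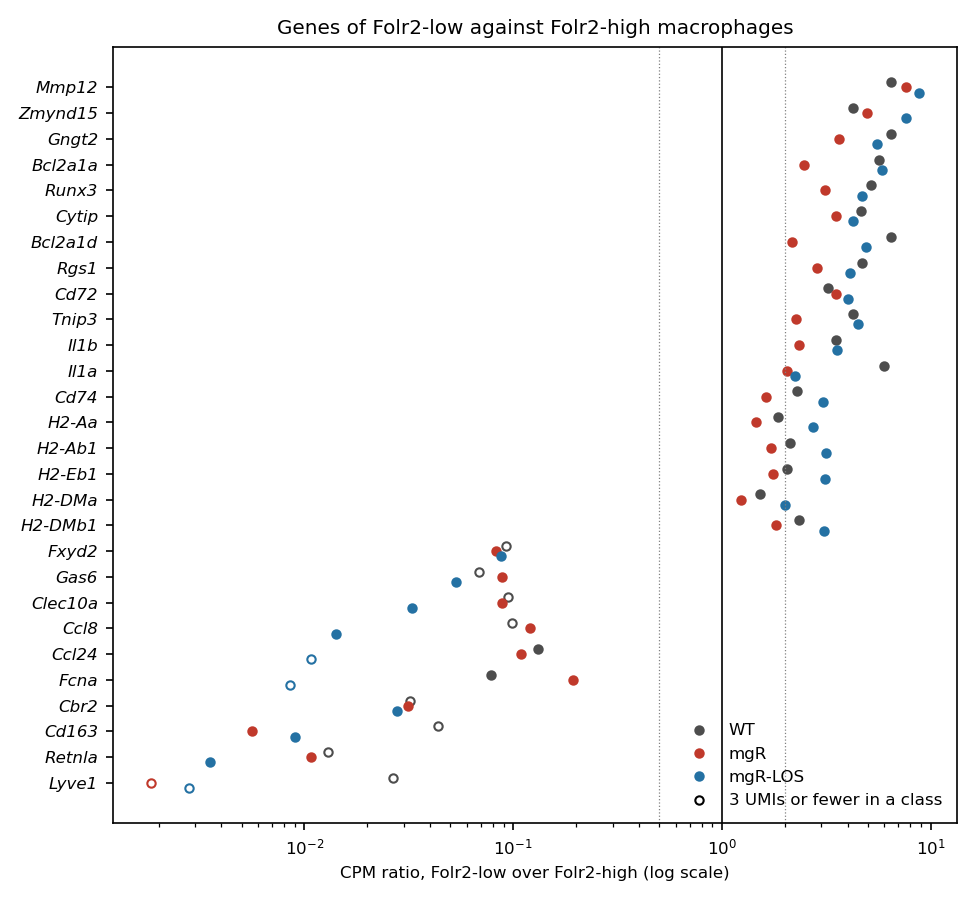
Ratio of CPM in Folr2-low over Folr2-high barcodes (log scale) for 28 genes, 1 point per library. The vertical line marks 1 and dotted lines mark 0.5 and 2; open points rest on 3 UMIs or fewer in a class, with that sum set to 3. Genes at the top lie right of 2 in all libraries, MHC class II genes lie right of 1, and resident-type genes at the bottom lie below 0.2.

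MHC class II genes were higher in the Folr2-low barcodes of every library. All 6 that reached 100 CPM (Cd74, H2-Aa, H2-Ab1, H2-Eb1, H2-DMa and H2-DMb1) had ratios above 1 in all 3 libraries, with medians of 2.09 in WT, 1.67 in mgR and 3.07 in mgR-LOS, and none was past 2-fold in all 3. Of all 1300 genes, 30.2% had ratios above 1 in all 3 libraries. H2-Aa, the α chain of I-A, stood at 8965, 3455 and 5049 CPM against 4838, 2366 and 1848 CPM. H2-Eb1, the β chain of I-E, stood at 9550.2, 3486 and 4631 CPM against 4641, 1989 and 1482 CPM. H2-DMb1, a chain of the molecule that loads peptides, stood at 544, 252 and 417 CPM against 233, 139 and 136 CPM. Ciita, the coactivator of these promoters, stayed under 100 CPM, at 81.2, 36.4 and 44.3 CPM against 39.5, 21.3 and 22.9 CPM. Of 8 MHC class I genes compared, 7 also had ratios above 1 in all 3 libraries, with smaller medians of 1.13, 1.20 and 1.18.

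Promoters of MHC class II genes share a short module of X and Y boxes to which a common complex recruits Ciita. The module is shown for H2-Aa, H2-Eb1 and H2-DMb1, which moved together here, in the RefSeq promoters on GRCm38.p6, bases 110 to 26 before the start on each gene's own strand. They lie at chr17:34287849-34287933 on the minus strand, chr17:34305757-34305841 on the plus strand and chr17:34153081-34153165 on the plus strand. Capitals mark the letters GNAACT, as in the X box, and TGATTGG, the Y box.
H2-Aa: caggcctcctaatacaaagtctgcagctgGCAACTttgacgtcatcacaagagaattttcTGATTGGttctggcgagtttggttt
H2-Eb1: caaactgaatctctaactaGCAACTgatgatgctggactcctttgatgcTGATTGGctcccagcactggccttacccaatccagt
H2-DMb1: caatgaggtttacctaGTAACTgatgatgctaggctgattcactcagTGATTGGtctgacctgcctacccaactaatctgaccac
The marked stretches were 25, 24 and 25 bases apart. Promoters were matched for 8 of the 11 listed MHC class II genes, and TGATTGG, on either strand within 250 bases before the start, was found in 7 of them. It was found in 7.23% of all 32851 promoters of the table, and GNAACT in 37.3%. Both in this order, 20 to 27 bases apart, were found in 4 of the 8 and in 0.100% of all promoters. H2-Aa, H2-Eb1 and H2-DMb1 are among these 4, and the range of gaps spans theirs, so the match is not independent of the promoters shown. A match of letters is not a binding measurement.

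Members of the class differed widely in MHC class II. Per 10000 UMIs of a barcode, H2-Aa, H2-Ab1 and H2-Eb1 together had a median of 307 in WT (range 3.43 to 445), 56.4 in mgR (0 to 636) and 120.3 in mgR-LOS (0 to 634). The lower quartiles of 1.33 in mgR and 3.28 in mgR-LOS lay near 0, while the upper quartiles were 207 and 252, so each of these libraries held barcodes almost without and barcodes rich in these genes. The Folr2-high medians were 119, 4.20 and 3.04.

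A group of the mgR barcodes stood apart from the rest of the class. Alox15 (chromosome 11, 70344152 to 70352031 on GRCm38), which encodes a lipoxygenase that oxidizes fatty acids, Serpinb2, a plasminogen activator inhibitor (chromosome 1, 107511423 to 107535478), and F5, coagulation factor V (chromosome 1, 164151838 to 164220277), occurred together in the same barcodes. These 3 genes were chosen after their values were seen. In mgR, 28 of 228 Folr2-low barcodes (12.3%, 8.32% to 17.3%) carried 5 or more of their UMIs, against 1 of 11 in WT (9.09%, 0.230% to 41.3%) and 1 of 112 in mgR-LOS (0.893%, 0.0226% to 4.87%). The mgR and mgR-LOS intervals did not overlap, and the WT interval overlapped both. All 3 genes were among the 10 with the lowest mgR-LOS over mgR ratio in these same barcodes. The gap between the mgR and mgR-LOS shares thus follows from the choice of genes and is no separate support. Few barcodes lay near the limit. In mgR, 193 had none, 7 had 1 or 2, and the 28 held 7 to 147 with a median of 52.0. Their median depth was 10490.0 UMIs. Of the Folr2-high barcodes, 0 of 78 in WT, 8 of 710 in mgR and 1 of 438 in mgR-LOS reached the limit, and of all passing barcodes 1, 50 and 4, so in mgR some lay outside the C1q macrophages. In smooth muscle barcodes, which should lack these genes and had median depths of 14394, 15298 and 8531 UMIs, it was reached by 0 of 3375 in WT (up to 0.0889% allowed by a count of 0), 0 of 2295 in mgR (up to 0.131%) and 0 of 6489 in mgR-LOS (up to 0.0462%). After thinning to 1000 UMIs, at least 1 UMI was present in 0 of 11, 30 of 228 (13.2%) and 1 of 111 Folr2-low barcodes. One of the 28 was called a doublet.

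**Figure D3:**
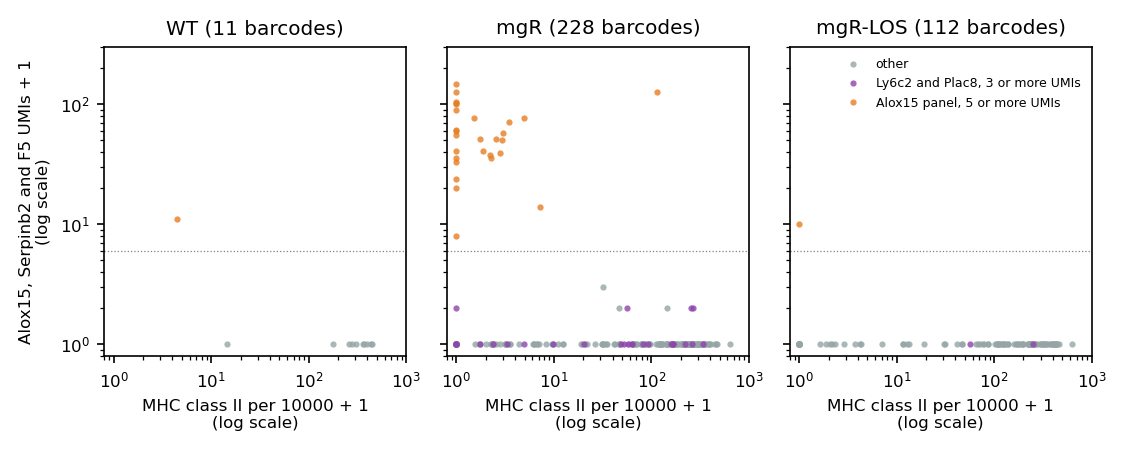
Each point is a Folr2-low barcode of the named library, with UMIs of Alox15, Serpinb2 and F5 plus 1 on the y axis and MHC class II UMIs per 10000 plus 1 on the x axis (both log scale). The dotted line is the limit of 5 UMIs; 28 mgR barcodes lie above it, all but 1 with under 10 MHC class II UMIs per 10000, against 1 in WT and 1 in mgR-LOS.

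Genes outside the 3 that picked them out also marked these 28 barcodes. Saa3, an acute phase serum amyloid, stood at 14516 CPM over the 28 (UMIs in 28 of 28) against 2.69 CPM over the 158 mgR barcodes in none of the groups named here. Fn1, fibronectin, stood at 10593 against 99.7 CPM, and Lyz2 at 26492 against 4676 CPM. Prg4, the lubricant proteoglycan 4, stood at 4009.9 against 2.69 CPM. The fatty acid carrier Fabp4 stood at 2311 against 10.8 CPM and the complement gene C4b at 1941 against 8.98 CPM. Gata6, a transcription factor known from macrophages of the serous cavities, was found in 23 of the 28, at 175 CPM, and at 1.80 CPM in the 158. Selp, Icam2, Cd5l, Marco and Timd4, a receptor for phosphatidylserine, stood at 528, 501, 511, 491 and 155 CPM, against 0, 4.49, 0, 19.8 and 0 CPM. Itgam, an integrin chain of myeloid cells, stood at 1305 against 128 CPM, and Adgre1, the F4/80 antigen, at 962 against 324 CPM.

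Several genes that marked the class elsewhere were low in the same 28 barcodes, while Il1a was not, at 421 against 303 CPM. H2-Aa stood at 296 CPM against 4403 CPM in the 158, and Cd74 at 639 against 11120.4 CPM. Per 10000 UMIs, H2-Aa, H2-Ab1 and H2-Eb1 together had a median of 0 and an upper quartile of 1.63 over the 28. One of the 28, which also held 10 UMIs of Ly6c2 and Plac8, stood at 114. It carried most of the UMIs of these 3 genes in the group. Ccl4 stood at 80.7 against 4425 CPM, and Il1b at 1046 against 4939 CPM. Cd72 and Mmp12 had no UMI in any of the 28, against 658 and 274 CPM. C1qa was lower, at 1547 against 4609.9 CPM. Csf1r, the growth factor receptor of macrophages, differed little, at 518 against 684 CPM. No cell type name was given to these barcodes, since the markers fixed for naming did not include these genes.

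Another group carried transcripts of classical monocytes. Ly6c2, the antigen that marks these cells in mice, and Plac8 had 3 or more UMIs in 27 of 228 Folr2-low barcodes of mgR (11.8%, 7.95% to 16.8%), 0 of 11 in WT (up to 27.3% allowed by a count of 0) and 2 of 112 in mgR-LOS (1.79%, 0.217% to 6.30%). Over all passing barcodes the shares were 1.55% in WT, 9.87% in mgR and 1.62% in mgR-LOS, close to those of the class in mgR and mgR-LOS. Ly6c2 was among the 10 genes with the lowest mgR-LOS over mgR ratio in the class. The contrast of mgR and mgR-LOS within the class is thus not independent of the choice of genes. The shares in Folr2-high barcodes were 0 of 78, 13 of 710 (1.83%) and 6 of 438 (1.37%), and in smooth muscle barcodes 0 of 3375, 5 of 2295 (0.218%) and 4 of 6489 (0.0616%). Thinned to 1000 UMIs, 11.4% of mgR and 1.80% of mgR-LOS Folr2-low barcodes held at least 1 UMI of them. One mgR barcode met both this limit and that of Alox15, and 26 were left. Over these 26, Ms4a4c, a membrane gene of monocytes, stood at 1426 CPM against 75.5 in the 158, and Ccr2 at 432 against 191 CPM. Spp1, osteopontin, stood at 3734 against 257 CPM, found in 14 of the 26. The interferon-induced genes Ifi27l2a and Cxcl10 stood at 6592 against 1935 CPM and 1864 against 311 CPM. Vegfa, a growth factor for endothelium, stood at 676 against 46.7 CPM, and the matrix protein Thbs1 at 2040.2 against 78.1 CPM, although it was higher still in the 28 Alox15 barcodes, at 3552 CPM. MHC class II was retained, with H2-Aa at 3404 CPM, and Il1b stood at 7729 CPM.

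**Figure D4:**
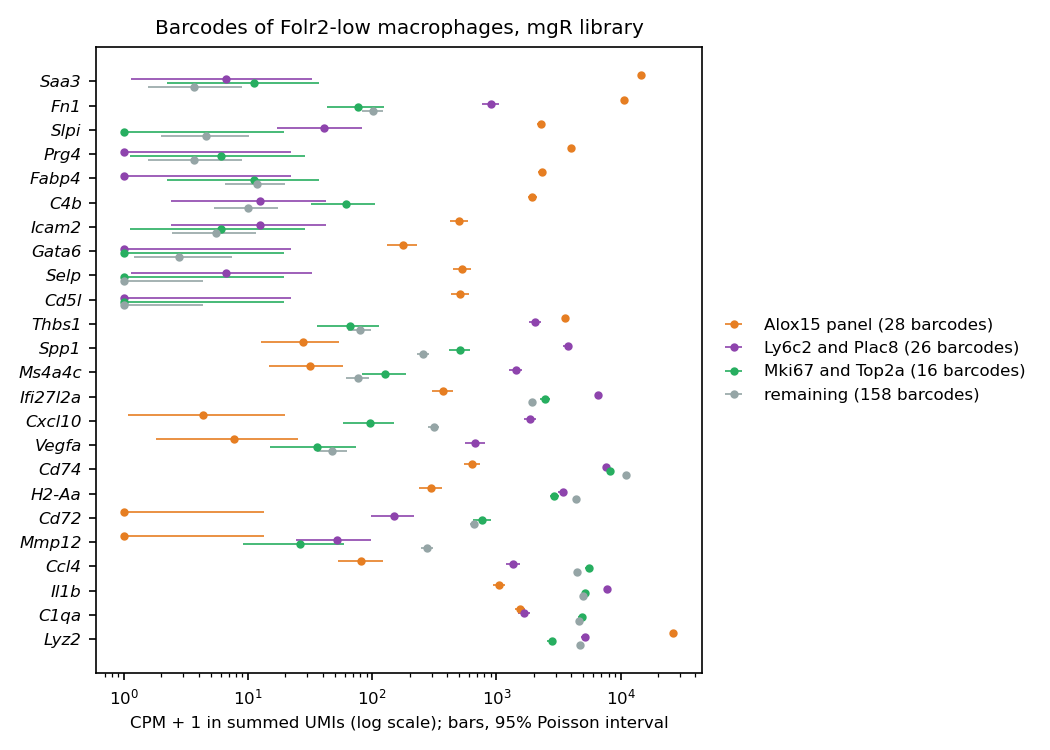
CPM plus 1 (log scale) of 24 genes over the Folr2-low barcodes of the mgR library, split into 28 barcodes with Alox15, Serpinb2 and F5, 26 with Ly6c2 and Plac8, 16 with Mki67 and Top2a, and the remaining 158; lines are exact 95% Poisson intervals of the sums. Saa3 stands at 14516 CPM in the first group and at or under 10.1 CPM in the others.

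Barcodes with cell division transcripts were more frequent in the treated library within this class. Mki67 and Top2a, which mark dividing cells, together had 2 or more UMIs in 0 of 11 Folr2-low barcodes of WT (up to 27.3% allowed by a count of 0), 17 of 228 in mgR (7.46%, 4.40% to 11.7%) and 19 of 112 in mgR-LOS (17.0%, 10.5% to 25.2%). The intervals of mgR and mgR-LOS overlapped. Both genes were among the 10 with the highest mgR-LOS over mgR ratio in these same barcodes, so this contrast is not independent of their choice. The 17 mgR barcodes held a median of 3 UMIs, near the limit, and the 19 of mgR-LOS a median of 19. Their median depths were 12586 and 8597 UMIs. Another 12 mgR and 15 mgR-LOS barcodes held 1 UMI. In Folr2-high barcodes the shares ran the other way between mgR and mgR-LOS, at 104 of 710 (14.6%) and 44 of 438 (10.0%), with 9 of 78 (11.5%) in WT. Over all passing barcodes they were 0.373% in WT, 2.72% in mgR and 1.02% in mgR-LOS, so also higher in mgR than in mgR-LOS. At a depth of 1000 UMIs, at least 1 UMI was found in 10 of 228 mgR (4.39%, 2.12% to 7.92%) and 14 of 111 mgR-LOS Folr2-low barcodes (12.6%, 7.07% to 20.3%), and in 7.90% and 7.31% of Folr2-high barcodes. At full depth, 0 of 3375, 0 of 2295 and 3 of 6489 smooth muscle barcodes (0.0462%) reached the limit of 2 UMIs.

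The comparison of mgR with WT asks how these cells differed in the mutant, and the 11 WT barcodes with 123139 UMIs in all set its precision. Of 1453 genes at 100 CPM or more in either library, 163 were at least 2-fold higher in mgR (11.2%) and 68 at least 2-fold lower (4.68%), with a median ratio of 1.07. The highest ratio was that of Saa3, at 48.7 CPM in WT, all from 1 barcode, and 2420.1 CPM in mgR, a ratio of 49.7 (22.8 to 135). The WT barcode was the 1 with Alox15, Serpinb2 and F5, and of the 4321 mgR UMIs of Saa3, 4315 lay in the 28 barcodes described above. Without the Alox15 group, 0 UMIs of Saa3 were left in WT and 6 in mgR. Plac8 and Ly6c2 had no UMI in WT and stood at 416 and 255 CPM in mgR, at least 17.1-fold and 10.5-fold higher, with nearly all UMIs in the monocyte group. With a C1q minimum of 20 per 10000, 396 of the 742 Plac8 UMIs were left (at least 9.73-fold), and among barcodes with no UMI of Folr2, F13a1 or Mrc1 both genes were at least 7.30-fold higher. Klf2, a transcription factor that quiets inflammatory genes, was found in more barcodes, with 3 UMIs in WT and 708 in mgR from 132 of 228 barcodes (24.4 and 397 CPM, interval of the ratio 5.55 to 79.1). Without the Alox15 group, 379 of these UMIs were left and the ratio was 9.71. Ccl2 stood at 89.3 and 745 CPM, a ratio of 8.34 (4.65 to 16.7). Of 22 immediate early genes compared, 8 were at least 2-fold higher in mgR, among them Fos at 682 and 2835 CPM. The lists with the most genes higher were thus the dissociation genes and the monocyte list, in which Ly6c2, Plac8, Fn1, Thbs1, S100a4 and Ms4a4c were 6 of 9 compared. Of these, Fn1 and Thbs1 had most of their mgR UMIs in the Alox15 group (3149 and 1056).

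MHC class II genes were lower in mgR, and this was not particular to the class. The list of 11 genes summed to 54012 CPM in WT and 19726 CPM in mgR in Folr2-low barcodes. In Folr2-high barcodes it summed to 25369 and 12152 CPM. Of 6 genes compared in Folr2-low barcodes, 5 were at least 2-fold lower in mgR, against 4.68% of all 1453 genes. The sixth, H2-DMa, stood at 455 and 259 CPM. Cd74 stood at 24419.6 and 8706 CPM, a ratio of 0.357 (0.343 to 0.371), and H2-Ab1 at 9981 and 3512 CPM, a ratio of 0.352 (0.331 to 0.374). In the barcodes outside the 3 groups, Cd74 stood at 26250.2 CPM in WT (10 barcodes) and 11120.4 CPM in mgR (158 barcodes). Of 13 inflammatory genes, 5 were at least 2-fold lower in mgR, namely Il1a, Tnf, Il12b, Il10 and Tlr2. The interleukin-1 receptor antagonist Il1rn was higher, with a ratio of 3.00. Over all 1453 genes, 4.68% were lower in this way and 11.2% higher. Il12b, a subunit of interleukin-12, stood at 236 CPM in WT, from 3 barcodes, and 3.36 CPM in mgR. Several of the lowest ratios rested on 1 WT barcode. All 245 WT UMIs of Slpi, a protease inhibitor, and all 13 of Csf2, a growth factor of myeloid cells, came from the 1 barcode with Alox15, Serpinb2 and F5. Without the Alox15 group, Slpi had 0 UMIs in WT and 11 in mgR, so a lower level in mgR was not shown. Csf2 was then at or under 3 UMIs in both libraries. Bcl2a1d was found in all 11 WT barcodes and stood at 1339.9 and 291 CPM, a ratio of 0.217 (0.182 to 0.261). The CPM of a gene in WT can thus turn on 1 cell, and the spread between mice was not measured.

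The comparison of mgR-LOS with mgR asks how these cells differed with losartan in the mutant. Of 1447 genes, 32 were at least 2-fold higher (2.21%) and 57 at least 2-fold lower (3.94%), with a median ratio of 0.989. Most of the 10 genes with the lowest ratios were those of the Alox15 group, and Ly6c2 was one of the monocyte group. Saa3 stood at 2420.1 CPM in mgR and 5.36 CPM in mgR-LOS, a ratio of 0.00222 (0.000604 to 0.00568). Slpi, Prg4 and Fabp4 had ratios of 0.0138, 0.0400 and 0.0444. Leaving out the barcodes with Alox15, Serpinb2 and F5 from all libraries lowered the count of lower genes from 57 to 28, and leaving out those with Ly6c2 and Plac8 too lowered it to 13. Under the first of these, few UMIs were left: 6 of Saa3 in mgR and 0 in mgR-LOS, 11 and 2 of Slpi, 4 and 2 of Prg4, and 14 and 10 of Fabp4. These barcodes were 12.3% and 11.8% of the class in mgR. Without both groups, which were chosen after they were seen to be frequent in mgR, the Folr2-low share of C1q macrophages was 20.1% in mgR and 20.2% in mgR-LOS, and without the Mki67 and Top2a barcodes, frequent in mgR-LOS, it was 25.8% and 19.1%. The share of passing barcodes stayed higher in mgR, at 2.15% against 0.857% and at 2.61% against 0.731%.

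Some genes differed between mgR and mgR-LOS in the barcodes of no group as well. Apoe, which carries cholesterol out of macrophages, stood at 14202 CPM in the 158 mgR barcodes and 6592 CPM in the 90 of mgR-LOS. Over the whole class its ratio was 0.492 (0.476 to 0.507). Cd74 stood at 11120.4 and 15738 CPM, and over the whole class its ratio was 1.69 (1.65 to 1.74). None of the 6 MHC class II genes compared was past 2-fold, with a median ratio of 1.52. The list of 11 MHC class II genes summed to 19726 CPM in mgR and 30559.8 CPM in mgR-LOS over the class. In Folr2-high barcodes it summed to 12152 and 10174 CPM, so it was not higher there. Il1b stood at 4939 and 5599.8 CPM, and Mmp12 at 274 and 347 CPM. Trem2, a lipid receptor of macrophages, stood at 294 and 182 CPM. Over the whole class, 5 of 18 genes of the lipid-associated list were at least 2-fold lower in mgR-LOS (Spp1, Fabp4, Fabp5, Ctsd and Apoe) and none higher. Over all 1447 genes, 3.94% were lower in this way and 2.21% higher. In the barcodes of no group, Spp1 stood at 257 and 251 CPM and Fabp4 at 10.8 and 14.5 CPM, while Fabp5 stood at 115 CPM (95.9 to 137) and 21.8 CPM (11.3 to 38.1).

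Among the genes higher with losartan were those of cell division. Of 6 cell cycle genes compared, 4 were at least 2-fold higher in mgR-LOS, against 2.21% of all 1447 genes. Mki67 stood at 57.1 and 284 CPM, a ratio of 4.98 (3.91 to 6.37), and Top2a at 56.0 and 209 CPM, a ratio of 3.74 (2.89 to 4.85). The UMIs of Mki67 came from 30 of 112 barcodes. Without the barcodes that carried Mki67 and Top2a, the histone gene Hist1h4d had a ratio of 3.76 (23 and 31 UMIs), while another histone gene, Hist1h1b, had 10 and 0 UMIs. Cd207, langerin, had the highest ratio, at 35.3 and 260.2 CPM (7.37, 5.52 to 9.96), and its UMIs came from 7 barcodes of mgR and 15 of mgR-LOS, with 36.6% of the latter UMIs from 1 barcode. Among barcodes with no UMI of Folr2, F13a1 or Mrc1, its ratio was 1.98. Hpgd, which degrades prostaglandins, was spread more widely, at 92.4 and 339 CPM in 71 and 73 barcodes, a ratio of 3.67 (3.01 to 4.49). WT stood at 292 CPM. Dcstamp, a gene of macrophage fusion, stood at 22.4 and 109 CPM.

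**Figure D5:**
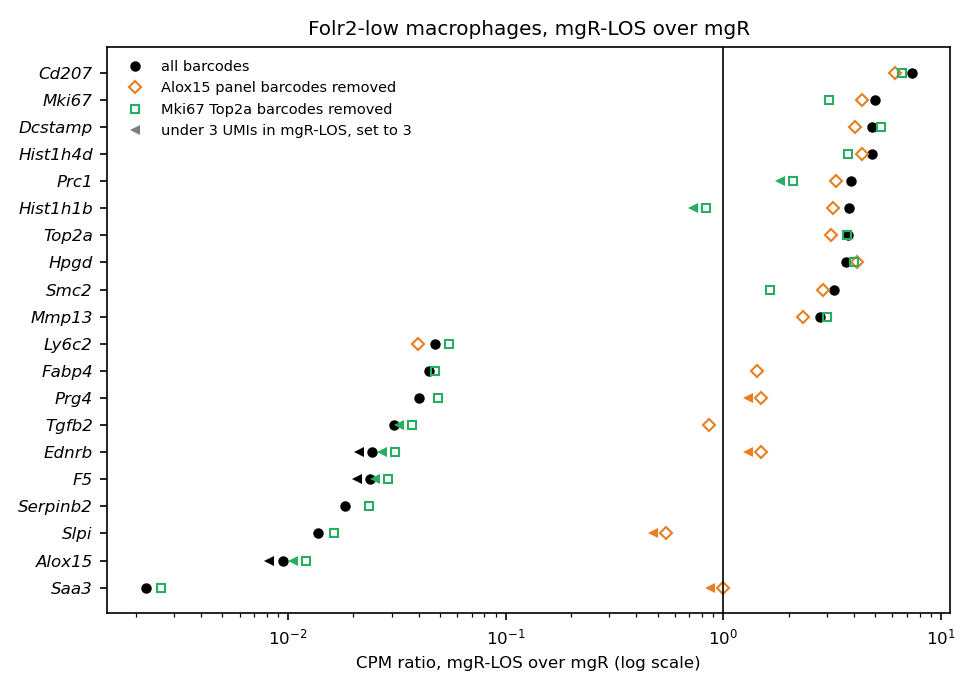
Ratio of CPM, mgR-LOS over mgR (log scale), for the 10 genes with the highest and the 10 with the lowest ratio in Folr2-low macrophages, with all barcodes (filled), without the barcodes carrying Alox15, Serpinb2 and F5 (diamonds) and without those carrying Mki67 and Top2a (squares). Arrowheads mark ratios with under 3 UMIs in mgR-LOS, set to 3, which are no measure of a higher level. The diamond of Fabp4 lies at 1.43, and no diamond is drawn for Alox15, Serpinb2 and F5, which were at or under 3 UMIs in both libraries.

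The treated library was also set against WT, with the same 11 WT barcodes as in the comparison above. Of 1484 genes, 177 were at least 2-fold higher in mgR-LOS than in WT (11.9%) and 84 at least 2-fold lower (5.66%). Klf2 stood at 24.4 CPM in WT and 236 CPM in mgR-LOS, and Ccl2 at 89.3 and 429 CPM. Cd74 stood at 24419.6 and 14748 CPM, and Apoe at 14163 and 6259 CPM.

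The list of 24 matrix proteases, inhibitors and growth factors summed to 2111, 4972 and 2696 CPM in the class, against 3578, 5816 and 3833 CPM over all passing barcodes. In mgR, Fn1 alone was 1923 CPM. Tgfbi, a matrix protein induced by transforming growth factor β, stood at 179, 477 and 393 CPM in WT, mgR and mgR-LOS. Tgfb1, that growth factor, stood at 195, 156 and 154 CPM, with overlapping intervals. Mmp13, a collagenase, stood at 244, 63.3 and 176 CPM, and 66.7% of its WT UMIs came from 1 barcode. Vegfa stood at 32.5, 101 and 45.6 CPM, with the mgR barcodes of the monocyte group carrying 119 of its 180 UMIs.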

How the data were processed

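Each library is a matrix of 32285 genes by barcodes that the authors deposited as raw UMI counts, not normalized. The file headers name Cell Ranger 5.0.1 for WT and mgR and 6.0.1 for mgR-LOS, the methods name GRCm38, and whether the change of version altered counts was not tested. The libraries held 7858 (WT), 10657 (mgR) and 14663 (mgR-LOS) barcodes with 83338726, 123956320 and 121436873 UMIs.

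Members were found barcode by barcode with the rule given above. The members and the gene lists were chosen with earlier results of these data known. UMIs of the Folr2-low and Folr2-high barcodes were summed per library and scaled to CPM, and genes at 100 CPM or more in either sum were compared, with sums under 3 UMIs set to 3. Folr2-low and Folr2-high were compared within each library, over genes at 100 CPM in either class of all 3. Intervals were exact Poisson (sums), Clopper-Pearson (shares) and conditional binomial (ratios), at 95%, with scipy 1.17.1, numpy 2.4.6 and pandas 2.3.3. Ratios and intervals were tested on simulated counts. UMI-derived intervals and floors cover counting error only, and the floor for a count of 0 was 3 counts.

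The text names members of the lists and the 10 genes with the highest and the 10 with the lowest ratio in each comparison, without mitochondrial genes and the genes of the rule. Further genes, such as Gata6, Icam2, Selp, Cd5l and C4b, and the groups set by Alox15, Serpinb2 and F5, by Ly6c2 and Plac8 and by Mki67 and Top2a, were chosen after their values were seen. Smooth muscle barcodes had at least 300 per 10000 of the smooth muscle genes and no C1q UMI. Doublets were called with a neighbor score (25% artificial doublets, 10 components, scikit-learn 1.9.0) and kept in. They were 4.29%, 6.46% and 10.2% of passing barcodes, and 0 of 11, 1 of 228 and 0 of 112 Folr2-low barcodes. Alternatives covered the limits of the rule, doublets, the CPM base, equal weight per barcode and removal of groups of barcodes. Figures used matplotlib 3.10.9.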

Additional observations from a re-analysis of the deposited data

Results flagged for a closer look

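In 3 of the listed or named genes that could be compared in all libraries, the ratio of Folr2-low over Folr2-high was past 2-fold upward in 1 library and past 2-fold downward in another, and the differences between libraries were not tested. Fn1 had a ratio of 4.59 in mgR, where 3149 of 3433 Folr2-low UMIs lay in the 28 barcodes with Alox15, Serpinb2 and F5, against 0.444 in WT, where all 16 UMIs lay in the 1 barcode of that kind, and 0.879 in mgR-LOS. Ecm1, an extracellular matrix gene, had a ratio of 2.07 in mgR against 0.348 in WT and 0.383 in mgR-LOS, and 471 of its mgR Folr2-low UMIs lay in the same 28 barcodes. Hist1h2ap, a replication-dependent histone gene, had a ratio of 2.26 in mgR-LOS and 0.580 in mgR, and no UMI in the 11 WT Folr2-low barcodes, where the ratio was at most 0.172.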

How the results depend on the processing

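No paired analysis was possible because each condition had 1 library, and leaving out a replicate was not possible for the same reason. Of the shares and counts of genes, 114 values stayed within 1.5 times the reported count or within the interval of the reported share, and 27 moved. For named genes, 686 ratios moved little, 64 moved and 14 crossed 1 as computed with sums under 3 UMIs set to 3. With a mitochondrial limit of 5%, the shares of passing barcodes were 0.550%, 3.96% and 1.30% in WT, mgR and mgR-LOS. With no UMI of the 3 genes allowed in Folr2-low and at least 10 per 10000 asked of Folr2-high barcodes, they were 0.0933%, 1.72% and 0.597%, or 5.62%, 14.8% and 13.8% of C1q macrophages, with 150 genes lower in mgR than in WT and 38 higher in Folr2-low barcodes. Cd207 then had a ratio of 1.98 in place of 7.37 for mgR-LOS over mgR. Thinned to 1000 UMIs, the shares of C1q macrophages were 24.7%, 35.2% and 29.9%. The mgR library had the highest share under each of these 3 settings. Without barcodes carrying monocyte, dendritic cell or neutrophil genes, the mgR share of passing barcodes was 1.82%. With a minimum of 20 UMIs in place of 100 CPM, 485 genes were higher and 481 lower in mgR than in WT, 141 higher and 475 lower in mgR-LOS than in mgR, and 141 lower in Folr2-low barcodes.

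The removal of 3 groups of barcodes was chosen after seeing the data. Without the Alox15, Serpinb2 and F5 barcodes, 28 genes were lower in mgR-LOS than in mgR and 32 higher in Folr2-low barcodes. The mgR over WT ratio then came out at 0.154 for Saa3 (6 UMIs against 0 in WT) and 0.615 for C4b (24 against 1). The mgR-LOS over mgR ratio came out at 1.00 for Saa3 (0 against 6), 1.5 for Ednrb (0 against 4), 1.5 for Prg4 (2 against 4) and 1.43 for Fabp4 (10 against 14). Without the Ly6c2 and Plac8 barcodes as well, the shares of mgR and mgR-LOS were 2.15% and 0.857% of passing barcodes and 20.1% and 20.2% of C1q macrophages, 13 genes were lower in mgR-LOS, and 32 were higher and 100 lower in Folr2-low barcodes. The mgR over WT ratio came out at 0.145 for Saa3 and for Plac8 (5 against 0 each) and 0.639 for C4b (22 against 1), and the mgR-LOS over mgR ratio at 1.08 for Saa3 (0 against 5), 1.35 for Slpi and for Prg4 (2 against 4 each) and 1.28 for Fabp4. Without the Mki67 and Top2a barcodes, that of Hist1h1b was 0.836 (0 against 10), and the shares of C1q macrophages were 25.8% and 19.1%. In all of these but Fabp4, a sum under 3 UMIs was set to 3. The ratios against 0 in WT are lower bounds and those with 0 in mgR-LOS are upper bounds. None with such a sum shows a reversed level. The bound of 0.836 for Hist1h1b leaves out the counting error of its 10 mgR UMIs, so a reversal was not shown there either. Depth limits WT most, with 11 barcodes and 123139 UMIs.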
